A study of Mus musculus with 12 samples.

Results

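The 9 genes described here are the oocyte-expressed *Nlrp4*, *Nlrp9* and *Nlrp14* genes of the mouse. They were taken by symbol and are 9 of the 24259 genes in the table: *Nlrp4a*, *Nlrp4b*, *Nlrp4c*, *Nlrp4e* and *Nlrp4f*, then *Nlrp9a*, *Nlrp9b* and *Nlrp9c*, and *Nlrp14*. RNA was sequenced from germinal vesicle (GV) stage oocytes of 3-week-old wild-type (WT) and *Lsm14b* knockout (KO) mice, collected 46 h after priming with 5 IU of PMSG, a gonadotropin that drives follicle growth. Lysates of about 1500 oocytes were spun through a sucrose gradient cut into 28 fractions. Fractions 1 to 10 were pooled as the RNP pool, which holds mRNA in light ribonucleoprotein particles, and fractions 11 to 28 as the polysome pool, which holds mRNA loaded with ribosomes. The 4 groups (WT polysome, WT RNP, KO polysome and KO RNP) have 3 libraries each. KO mice were homozygous for Lsm14b tm1a(KOMP)Mbp, a reporter-tagged insertion that acts in every tissue, and both genotypes were kept on the C57BL/6J background. Nothing in the labels ties a library to an animal, so p-values measure the spread between these libraries, which may be technical.

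NLRP proteins are cytosolic proteins that join an N-terminal pyrin domain to a nucleotide-binding NACHT domain and C-terminal leucine-rich repeats. The best known of them, such as NLRP3, sense danger signals in immune cells and build inflammasomes, the platforms that activate caspase-1. A separate set of paralogs, to which the genes here belong, is made mainly by the growing oocyte, is stored in the egg and serves the early embryo. NLRP4F is a component of the subcortical maternal complex, a protein assembly under the egg surface, and NLRP14 is a maternal-effect protein needed for early development. LSM14B, the protein lost in the KO, is an oocyte RNA-binding protein of such stored ribonucleoprotein particles.

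*Lsm14b* itself read 11.3, 15.3 and 13.2 FPKM in WT polysomes and 34.6, 29.3 and 27.4 FPKM in WT RNP, and no KO library held more than 0.893 FPKM (limma adjusted p = 0.00271 in polysomes and 5.66e-05 in RNP). FPKM count fragments per kilobase of transcript, scaled to the mapped fragments of each library. They are a level per length, so FPKM of different genes can be set side by side within a library. All 10 oocyte markers, among them *Zp3* and *Gdf9*, were detected, with summed levels from 6913 to 29777 FPKM. The 11 granulosa and cumulus cell markers summed to 31.3 to 35.3 FPKM in the WT and 43.2 to 65.5 FPKM in the KO RNP libraries. In polysome libraries they summed to 27.2 to 75.5 FPKM for WT and 81.4 to 103 FPKM for KO. There 3 of the 7 tested (*Fshr*, *Inha* and *Inhba*) were called higher in KO, as was 1 of 4 in RNP (*Inha*). Over all genes tested, limma called 5.64% higher in polysomes and 10.5% in RNP. *Fshr* and *Inhba* stayed under 1 FPKM in every WT polysome library, and *Inha* in every WT RNP library. They were tested there only because of their KO values, so these counts lean toward higher in KO. *Inha* read 9.58, 0 and 8.11 FPKM in WT and 51.4, 39.4 and 39.5 FPKM in KO polysomes. The granulosa marker *Cyp19a1* leaned the other way there, at 62.0, 19.0 and 32.0 FPKM in WT and 14.6, 23.5 and 34.5 FPKM in KO. Its polysome change (log2 -0.54) and that of *Kitl* (-0.11) were not called, and these were the only tested markers lower in KO. Of the defining genes, *Foxl2* and *Amhr2* were listed at 0 except at 1.01 FPKM (*Foxl2*) and 0.749 FPKM (*Amhr2*) in 1 KO RNP library each. The summed level was thus higher in KO in both pools, as were most of the 9 genes, and the part of these cells in the results was not tested. Depth is not stated in the table, and from the spacing of its lowest values it was estimated at 4.90 to 7.89 M fragments per library. In KO polysome replicate 2 a single entry, *Mir300*, was listed at 170809 FPKM against 0 in the other 11 libraries, and the calls of the 9 genes that were lost without that library are named with their results.

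All 9 genes are annotated as protein coding in GENCODE M21 (GRCm38, the same assembly as mm10), and 8 of them lie on chromosome 7. *Nlrp9c* (chr7:26322473-26403700, minus strand), *Nlrp4a* (chr7:26435113-26476142, plus strand) and *Nlrp9a* (chr7:26535023-26575615, plus strand) are neighbours, with gaps of 31.4 and 58.9 kb. Elsewhere on the plus strand of chromosome 7 lie *Nlrp4c* (chr7:6045161-6105150), *Nlrp4b* (chr7:10687789-10730168), *Nlrp9b* (chr7:19991465-20073306), *Nlrp4e* (chr7:23301192-23362277) and, 80591 kb beyond *Nlrp9a*, *Nlrp14* (chr7:107166990-107198102). *Nlrp4f* is alone on chromosome 13 (chr13:65177111-65205977, minus strand). The bounds deposited with the FPKM differ from these, most for *Nlrp9c* (chr7:26364886-26394243) and *Nlrp9b* (chr7:20008022-20062938). The positions, gaps and transcript features given here are those of GENCODE M21. Their transcripts are alike in build. They have 9 to 11 exons, coding regions of 2589 to 3012 bases against a median of 1360.5 bases over 10100 expressed coding genes, and 3′ untranslated regions with a median of 355 bases against 905. GC content was 39.0 to 43.3% against a median of 50.0%.

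The genes are paralogs, and how much sequence they share bears on how reads were divided among them. Within the 5 *Nlrp4* genes, 78.4 to 93.9% of aligned coding bases were identical, and within the 3 *Nlrp9* genes 83.2 to 87.7%. Between subfamilies, *Nlrp14* included, the 23 pairs were 61.3 to 65.2% identical and shared no exact run longer than 15 bases. The longest exact runs were 120 bases between *Nlrp4c* and *Nlrp4e* and 129 bases between *Nlrp9a* and *Nlrp9b*. The 150 coding bases around each run are shown because reads from there are the hardest to assign to a gene of the pair. Capitals mark the bases at which the pair differ, 4 in the first pair and 2 in the second. The stretch lies in exon 2 of *Nlrp4c*, exon 1 of *Nlrp4e* and exon 3 of both *Nlrp9* genes, all within coding sequence.
Nlrp4c (chr7:6060700-6060849, plus strand): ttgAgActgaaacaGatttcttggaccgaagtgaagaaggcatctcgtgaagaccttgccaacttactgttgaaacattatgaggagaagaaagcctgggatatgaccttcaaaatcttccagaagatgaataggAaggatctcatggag
Nlrp4e (chr7:23301387-23301536, plus strand): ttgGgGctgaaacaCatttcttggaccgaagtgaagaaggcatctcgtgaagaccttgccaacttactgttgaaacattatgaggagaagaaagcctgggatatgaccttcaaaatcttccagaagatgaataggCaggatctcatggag
Nlrp9a (chr7:26557536-26557685, plus strand): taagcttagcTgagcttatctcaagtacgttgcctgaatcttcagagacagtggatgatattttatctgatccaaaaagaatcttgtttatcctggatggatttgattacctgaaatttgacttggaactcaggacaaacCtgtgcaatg
Nlrp9b (chr7:20023417-20023566, plus strand): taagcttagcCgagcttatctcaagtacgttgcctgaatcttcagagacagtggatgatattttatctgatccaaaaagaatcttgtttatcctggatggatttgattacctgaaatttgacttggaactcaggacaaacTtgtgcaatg

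**Figure D1:**
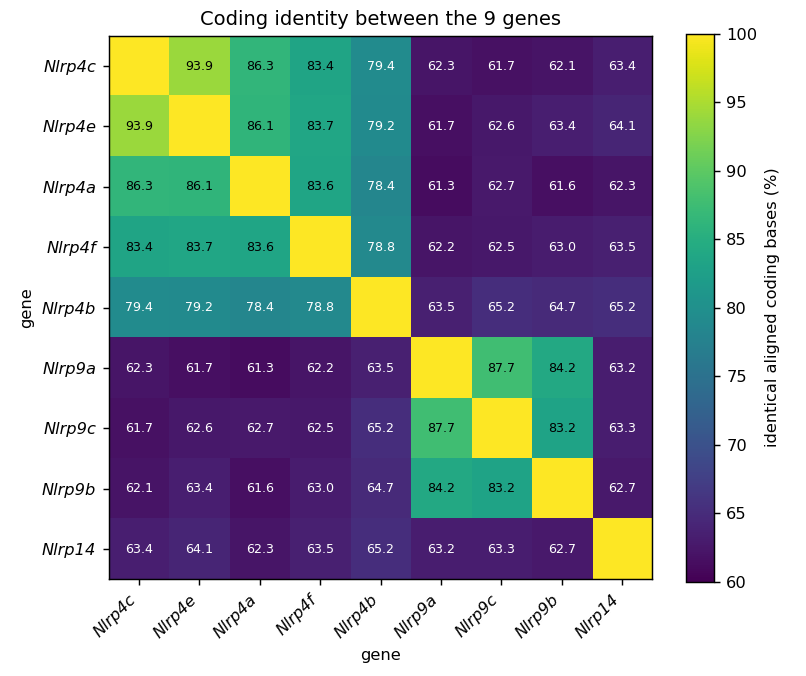
Percent of aligned coding bases that are identical for each pair of the 9 genes, as a colour scale from 60 to 100%. The *Nlrp4* genes form a block at 78.4 to 93.9%, the *Nlrp9* genes a block at 83.2 to 87.7%, and *Nlrp14* is at no more than 65.2% with every other gene.

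Reads were 150 bases from each end. Searched against all transcripts of the annotation, *Nlrp4e* alone of the 9 held exact 150-base windows that also occur in another gene, 3.40% of its windows. At 75 bases the share was 20.2% for *Nlrp4e*, 3.42% for *Nlrp4c*, 3.09% for *Nlrp9b*, 2.42% for *Nlrp4f*, 2.21% for *Nlrp9a*, 1.56% for *Nlrp9c* and 0.358% for *Nlrp4a*. It was 0 for *Nlrp4b* and *Nlrp14*. The genes that share most with *Nlrp4e* are 5 annotated pseudogenes, of which the table lists only *Gm4541*, at 0 to 0.730 FPKM. *Nlrp4f* shares windows with *Nlrp4g*, a chromosome 9 locus annotated as a transcribed pseudogene. *Nlrp4e* thus held the highest share of sequence found elsewhere, and its level is uncertain to that extent, as are those of the other genes with shared windows to a lesser one. *Nlrp9b* as annotated in GENCODE M21 also shares exon bases with *Gm18877*, and reads from those bases cannot be assigned by position alone. Whether these bases lie within the deposited bounds of *Nlrp9b* was not checked.

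Promoter sequence was found in RefSeq (GRCm38.p6) for 8 of the 9 genes, *Nlrp14* being the exception. For *Nlrp9c*, on the minus strand, the RefSeq start lies outside the bounds deposited with its FPKM, which end at chr7:26394243. Over the 250 bases before the start site, *Nlrp9a* and *Nlrp9c* were 96.1% identical across 203 aligned bases and *Nlrp4b* and *Nlrp4c* 78.5% across 209. The other pairs were 56.3 to 68.3% identical. The last 120 bases before the start are shown for these pairs because they carry repeated CCAAT boxes. Capitals mark CCAAT, or ATTGG where the box is on the other strand, and each line runs 5′ to 3′ along the gene.
Nlrp9a (chr7:26534903-26535022, plus strand): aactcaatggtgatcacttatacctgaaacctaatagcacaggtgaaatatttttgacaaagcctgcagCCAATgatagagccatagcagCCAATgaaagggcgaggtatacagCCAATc
Nlrp9c (chr7:26403701-26403820, minus strand): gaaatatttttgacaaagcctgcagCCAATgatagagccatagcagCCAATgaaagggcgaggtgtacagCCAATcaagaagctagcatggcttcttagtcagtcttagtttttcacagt
Nlrp4b (chr7:10687673-10687792, plus strand): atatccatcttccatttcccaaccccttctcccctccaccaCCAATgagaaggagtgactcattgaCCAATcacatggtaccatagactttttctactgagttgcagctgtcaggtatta
Nlrp4c (chr7:6045041-6045160, plus strand): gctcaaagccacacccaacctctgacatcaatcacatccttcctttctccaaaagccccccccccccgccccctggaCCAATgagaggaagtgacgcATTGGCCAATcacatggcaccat
Both strands of the 250 bases were searched. *Nlrp9a*, *Nlrp9c* and *Nlrp4c* held 3 CCAAT boxes each, *Nlrp4b* held 2 and *Nlrp4e* 1, and none was found in *Nlrp4a*, *Nlrp4f* and *Nlrp9b*. At least 1, 2 and 3 boxes were found in 34.5%, 10.5% and 2.98% of all 27025 promoters, and in 37.2%, 13.8% and 4.95% of the 8370 promoters of expressed genes. This motif was chosen after the sequences had been seen. TAATTG, an element bound by the oocyte factor NOBOX, was found in *Nlrp9a* and *Nlrp9b* and in 7.34% of all and 4.70% of expressed promoters, and TAATTA in *Nlrp9a* and in 4.90% and 2.62%. CANNTG, the E-box, which also contains CAGCTG and CACGTG, was found in 7 of the 8 and in 66.0% of all and 57.9% of expressed promoters. CAGCTG was found in *Nlrp4a* and *Nlrp4b* (12.8% of all and 12.3% of expressed), CACGTG in none of the 8 (6.05% and 8.64%), TATAAA in *Nlrp9b* (12.97% and 6.69%) and GGGCGG in *Nlrp4c* (32.9% and 58.3%). A match is a string of letters and not a binding site.

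The levels of the 9 genes spanned 3 orders of size. *Nlrp14* was the highest of the 9 in WT polysomes at 2573 ± 103 FPKM (SD, n = 3), where it was rank 12 of all 24259 genes, and in KO polysomes at 6014 ± 536 FPKM, where it was rank 6. *Nlrp4c* was the lowest in every group, at 4.37 ± 0.407 FPKM in WT polysomes and never above 13.4 FPKM in any library. The order in WT polysomes below *Nlrp14* ran *Nlrp4f*, *Nlrp9b*, *Nlrp4b*, *Nlrp9a*, *Nlrp4a*, *Nlrp9c*, *Nlrp4e* and *Nlrp4c*. Within each WT polysome library *Nlrp4f* was above *Nlrp9b* and *Nlrp9b* above *Nlrp4b*, *Nlrp9a* and *Nlrp4a*, although the ranges over libraries of *Nlrp4f* and *Nlrp9b*, and of *Nlrp9b* and *Nlrp4b*, overlapped. *Nlrp4b*, *Nlrp9a* and *Nlrp4a* changed places from library to library, and *Nlrp9c*, *Nlrp4e* and *Nlrp4c* each stood clear below. In WT RNP the highest was *Nlrp4f* at 373 ± 30.8 FPKM, above *Nlrp14* at 247 ± 29.4 FPKM with no overlap. *Nlrp4a* there overlapped *Nlrp9b* in range but was above it in each library, and *Nlrp4e* and *Nlrp9c* changed places. In KO polysomes *Nlrp9b* took the place below *Nlrp14*, clear of *Nlrp4f*. The ranges of *Nlrp4f* and *Nlrp4b*, and of *Nlrp4b* and *Nlrp9a*, overlapped there, with the same order in each library. In KO RNP *Nlrp14* was again the highest of the 9 at 876 ± 37.7 FPKM. *Nlrp4a* overlapped *Nlrp9a* there but was above it in each library, and *Nlrp4e* and *Nlrp9c* again changed places. *Nlrp14* alone made up 18.9 to 24.3% of the summed FPKM of the 9 genes in WT RNP libraries and 39.6 to 40.3% in the KO ones. Its share was 59.2 to 61.7% in the polysome libraries of WT and 67.9 to 69.2% in those of KO.

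**Figure D2:**
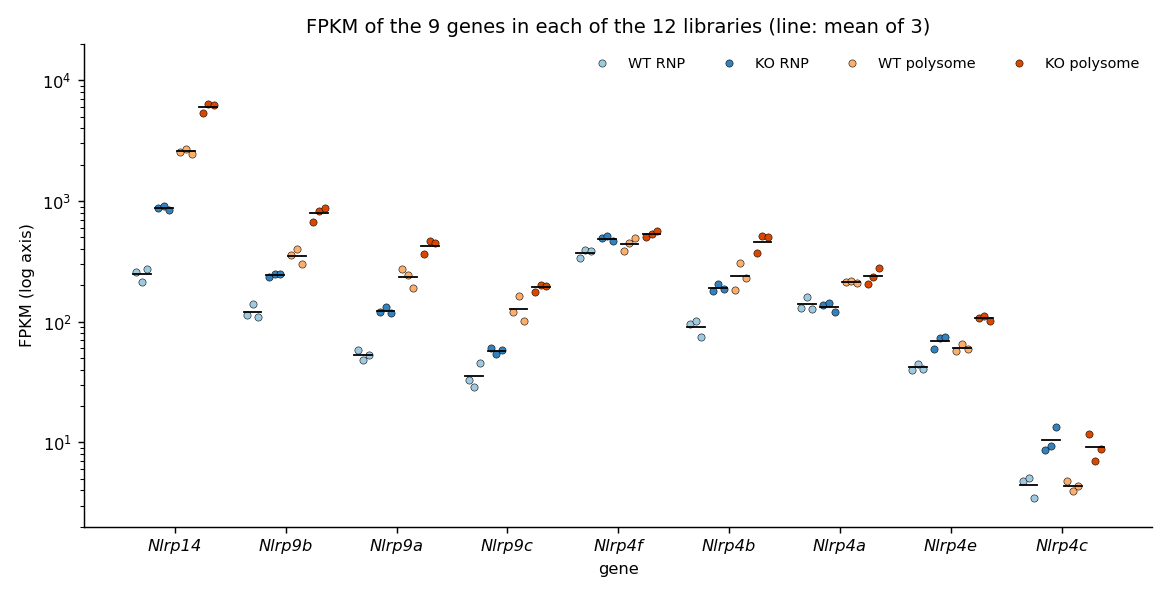
FPKM of each gene on a log axis in the 12 libraries, coloured by genotype and pool, with a line at the mean of 3. *Nlrp14* reaches 6350.4 FPKM in KO polysomes, *Nlrp4c* stays between 3.48 and 13.4 FPKM, and the KO points of most genes sit above the WT points of the same pool.

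The first question was whether loss of LSM14B went with other levels of these mRNAs on polysomes. In the polysome pool 5 of the 9 genes were higher in KO than in WT and none was lower: *Nlrp14*, *Nlrp9b*, *Nlrp4b*, *Nlrp9a* and *Nlrp4e*, by 1.75 to 2.33-fold. The test was limma on log2(FPKM + 1), with p-values adjusted by Benjamini-Hochberg over all 9536 genes tested and called below 0.05. It called 5.64% of those genes higher. The median change of the 9 was 0.86 on the log2 scale against 0.10 over all genes tested, and that 0.10 is the general shift against which the changes are to be read. In the RNP pool 8 of the 9 were higher in KO and none was lower, the exception being *Nlrp4a*, where limma called 10.5% of 9931 genes higher. The median change of the 9 there was 1.02 against 0.054 over all genes tested. All 9 passed the filter on low values in both pools. Every KO library was above every WT library for 8 of the 9 in each pool. Over all genes tested this held for 18.2% in polysomes and 20.7% in RNP, and the reverse for 13.4% and 18.4%. FPKM are relative to the rest of each pool, and in pooled oocytes fewer cells with a transcript and less RNA per cell cannot be told apart. All fold changes are on the log2(FPKM + 1) scale, which understates changes of low genes such as *Nlrp4c*.

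*Nlrp14*, the maternal-effect gene, rose in both pools. Its change was the highest of the 9 in RNP under every alternative run. *Nlrp14* read 2565, 2679.9 and 2475 FPKM in WT polysomes against 5396, 6350.4 and 6296 FPKM in KO polysomes. In the RNP pool it read 256, 214 and 271 FPKM in WT against 868, 918 and 844 FPKM in KO. The 3 KO libraries were above the 3 WT libraries in both pools with a wide margin. The change was 2.33-fold in polysomes (log2 1.22, SE 0.089, adjusted p = 0.000437) and 3.55-fold in RNP (log2 1.83, SE 0.10, adjusted p = 9.73e-06). It was called in both pools under every alternative run, with the lowest log2 change in polysomes, 0.82, under quantile normalization. There *Nlrp9b* (1.09), *Nlrp4c* (0.90) and *Nlrp4b* (0.84) were above it, and without WT replicate 2 *Nlrp9b* was level with it (1.25), so its first place in polysomes depended on the setting.

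The *Nlrp9* genes, of which *Nlrp9b* is also known as a sensor of viral RNA in the gut lining, rose together in RNP and were called in part in polysomes. *Nlrp9b* read 359, 399.8 and 302 FPKM in WT polysomes against 671, 832 and 867 FPKM in KO polysomes. The RNP values were 113, 141 and 109 FPKM in WT and 233, 251 and 251 FPKM in KO. KO and WT libraries did not overlap in either pool, and the change was 2.23-fold in polysomes (log2 1.16, SE 0.14, adjusted p = 0.00342) and 2.03-fold in RNP (log2 1.02, SE 0.12, adjusted p = 0.000587). *Nlrp9a* read 273, 246 and 191 FPKM in WT polysomes against 363, 466 and 453 FPKM in KO polysomes. In RNP, WT libraries held 58.3, 47.8 and 53.5 FPKM and KO libraries 120.5, 132 and 119 FPKM. Here too the groups stood apart in both pools, with a change of 1.81-fold in polysomes (log2 0.86, SE 0.16, adjusted p = 0.0144) and 2.31-fold in RNP (log2 1.21, SE 0.13, adjusted p = 0.000352). *Nlrp9c* read 119, 164 and 101 FPKM in WT polysomes against 178, 203 and 199 FPKM in KO polysomes. In the RNP pool it read 33.0, 28.6 and 45.8 FPKM in WT against 61.1, 54.3 and 57.9 FPKM in KO. *Nlrp9c* was the least abundant of the 3 and had the widest relative spread in WT. Its change was not called in polysomes (log2 0.62, SE 0.19, adjusted p = 0.0707, 95% interval 0.19 to 1.04) and was called in RNP (log2 0.70, SE 0.19, adjusted p = 0.0286).

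Among the *Nlrp4* genes the change ran from none detected to more than 2-fold. *Nlrp4b* read 183, 305 and 230.1 FPKM in WT polysomes against 368, 509.9 and 502 FPKM in KO polysomes. The RNP values were 94.9, 101 and 74.3 FPKM in WT and 180.0, 207 and 185 FPKM in KO. *Nlrp4b*, which shares no 75-base window with another gene, was higher in every KO library, by 1.94-fold in polysomes (log2 0.95, SE 0.20, adjusted p = 0.0223) and 2.12-fold in RNP (log2 1.08, SE 0.14, adjusted p = 0.000888). *Nlrp4e* read 57.4, 65.7 and 59.5 FPKM in WT polysomes against 107, 113 and 101 FPKM in KO polysomes. In RNP, WT libraries held 39.7, 44.9 and 40.9 FPKM and KO libraries 59.1, 73.6 and 74.6 FPKM. The libraries of *Nlrp4e*, which knockdown work has tied to preimplantation development, did not overlap between genotypes. Its change was 1.75-fold in polysomes (log2 0.80, SE 0.15, adjusted p = 0.0140) and 1.63-fold in RNP (log2 0.70, SE 0.15, adjusted p = 0.0104).

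*Nlrp4c* was low throughout. *Nlrp4c* read 4.78, 3.97 and 4.37 FPKM in WT polysomes against 11.7, 6.99 and 8.83 FPKM in KO polysomes. In the RNP pool it read 4.76, 5.12 and 3.48 FPKM in WT against 8.58, 9.25 and 13.4 FPKM in KO. The KO libraries were above the WT libraries in both pools, yet the estimated 77 to 302 fragments behind each value leave a counting error of up to 11.4%. The change was not called in polysomes (log2 0.90, SE 0.39, adjusted p = 0.179, 95% interval 0.023 to 1.78) and was called in RNP (log2 1.06, SE 0.30, adjusted p = 0.0358). *Nlrp4f* read 384, 449 and 497 FPKM in WT polysomes against 503, 534 and 565 FPKM in KO polysomes. The RNP values were 337, 393 and 388 FPKM in WT and 489.5, 509.5 and 464 FPKM in KO. For *Nlrp4f*, the subcortical maternal complex component, the groups also stood apart but the change was small, 1.21-fold and not called in polysomes (log2 0.27, SE 0.12, adjusted p = 0.198) and 1.31-fold and called in RNP (log2 0.39, SE 0.087, adjusted p = 0.0131).

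*Nlrp4a*, which lies between *Nlrp9c* and *Nlrp9a*, was alone among these genes in being called in neither pool. *Nlrp4a* read 212, 216 and 208 FPKM in WT polysomes against 205, 234 and 280.4 FPKM in KO polysomes. In RNP, WT libraries held 130.3, 161 and 128 FPKM and KO libraries 136, 142 and 119.9 FPKM. KO and WT libraries overlapped in both pools. The change was not called in polysomes (log2 0.16, SE 0.14, adjusted p = 0.511, 95% interval -0.16 to 0.48) or in RNP (log2 -0.07, SE 0.13, adjusted p = 0.746, 95% interval -0.36 to 0.22). The upper bounds of these intervals lie below the point estimates for its neighbours *Nlrp9a* (0.86 and 1.21) and *Nlrp9c* (0.62 and 0.70). In polysomes, however, the 95% interval of *Nlrp9c* (0.19 to 1.04) overlapped that of *Nlrp4a*. The difference between genes was not itself tested.

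Several calls near the threshold were lost under other settings. In polysomes the calls of *Nlrp14* and *Nlrp9b* held under every alternative run. With no intensity trend *Nlrp4b*, *Nlrp9a* and *Nlrp4e* were lost (adjusted p of 0.110, 0.103 and 0.0793), and with no filter on low values *Nlrp4b* and *Nlrp9a* (0.0720 and 0.0511). The same 3 were lost without KO replicate 2, the library with the *Mir300* entry, and without KO replicate 3. *Nlrp4b* then changed by 0.87 and 0.88 on the log2 scale (adjusted p of 0.0845 and 0.0811), *Nlrp9a* by 0.79 and 0.81 (0.0626 and 0.0585), and *Nlrp4e* by 0.77 and 0.84 (0.0727 and 0.0519). Leaving out WT replicate 2 added *Nlrp9c* (0.81, adjusted p = 0.0238). In RNP the calls of *Nlrp14*, *Nlrp9a*, *Nlrp9b* and *Nlrp4b* held without any library, that of *Nlrp4c* was lost without WT replicate 1 or 3 or any KO replicate (adjusted p from 0.0579 to 0.152), that of *Nlrp9c* without WT replicate 1 or 2 or any KO replicate (0.0632 to 0.102), that of *Nlrp4f* without KO replicate 1 or 2 (0.0504 and 0.0566) and that of *Nlrp4e* without KO replicate 2 or 3 (0.0516 and 0.0508).

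**Figure D3:**
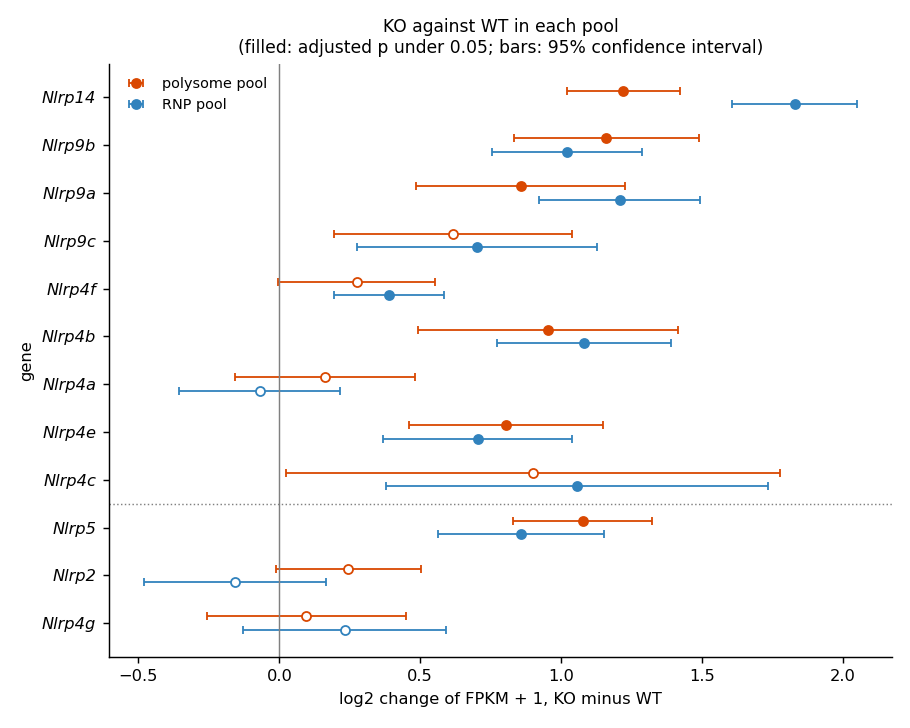
Change from WT to KO on the log2(FPKM + 1) scale for the 9 genes and, below the dotted line, 3 other expressed *Nlrp* genes, with 95% confidence intervals from limma; filled points have an adjusted p under 0.05. *Nlrp14* lies farthest right at 1.83 in RNP, while both intervals of *Nlrp4a* span 0.

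Sums over a subfamily depend less on how reads were divided among its members than single levels do, though FPKM divide by a transcript length that differs between the members. The 5 *Nlrp4* genes summed to 960.3 ± 105 FPKM in WT and 1349.8 ± 137 FPKM in KO polysomes (SD, n = 3), and the lowest KO sum, 1196, was above the highest WT sum, 1040.1. In RNP the sums were 649 ± 50.8 and 891 ± 44.9 FPKM. The ratio of means was 1.41 in polysomes and 1.37 in RNP. The 3 *Nlrp9* genes summed to 718 ± 111 FPKM in WT and 1410.4 ± 173 FPKM in KO polysomes, and to 209.8 ± 6.36 and 426 ± 11.5 FPKM in RNP, ratios of 1.96 and 2.03. Both sums were thus higher in KO in both pools with no overlap of libraries, and the *Nlrp9* ratio was the higher, a difference between subfamilies that was not tested.

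**Figure D4:**
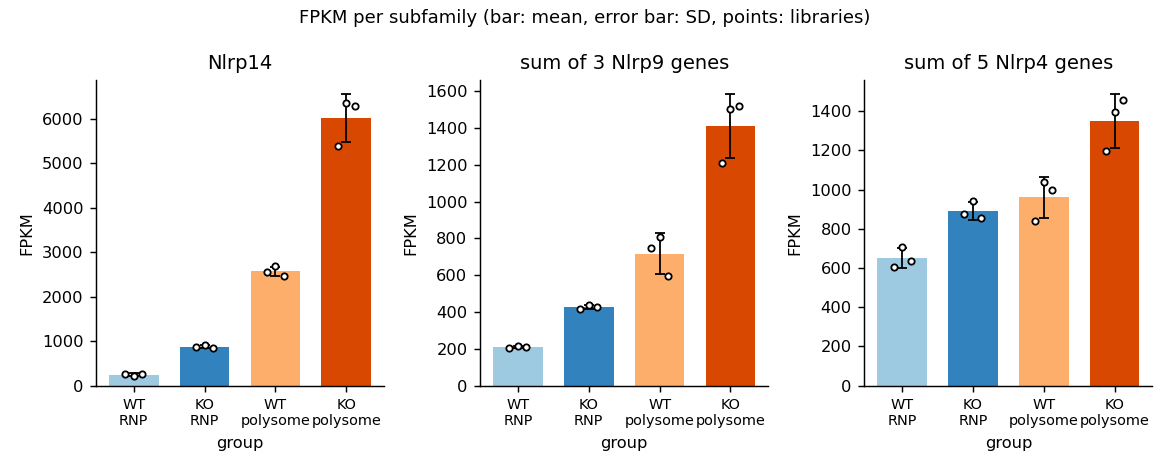
FPKM of *Nlrp14*, of the 3 *Nlrp9* genes summed and of the 5 *Nlrp4* genes summed in each group, as means with SD and the 3 libraries as points. *Nlrp14* goes from 247 FPKM in WT RNP to 6014 in KO polysomes, and the *Nlrp4* sum differs least between the pools.

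The second question was how the mRNAs were placed between the pools. In WT oocytes 6 of the 9 genes had a higher FPKM in polysomes than in RNP and none a lower: *Nlrp14*, *Nlrp9a*, *Nlrp9c*, *Nlrp9b*, *Nlrp4b* and *Nlrp4a*. Of all 9574 genes tested, limma called 7.97% higher in polysomes, and the median of the 9 was 1.38 against -0.093 over all genes tested. In KO oocytes 7 were higher in polysomes, the same 6 and *Nlrp4e*, against 15.5% of 9851 genes, with a median of 1.25 against -0.045. Other oocyte genes leaned the same way. Of the 10 oocyte markers 9 were higher in polysomes and 1 lower in each genotype, with medians of 1.60 in WT and 1.81 in KO. Of 7 listed genes of the subcortical maternal complex 6 were higher and 1 lower in each, with medians of 2.23 and 2.19. The lean toward polysomes was thus not particular to the 9 genes. A fold here compares the standing of an mRNA within each pool and not the share of its molecules on polysomes. These comparisons use the same libraries as those between genotypes.

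The difference between pools was highest for *Nlrp14*, intermediate for the *Nlrp9* genes and lower for the *Nlrp4* genes, an order that was not itself tested. *Nlrp14* was 10.4-fold higher in WT polysomes than in WT RNP (log2 3.38, SE 0.11, adjusted p = 8.50e-07), the eighth highest difference of the 9574 genes, and 6.84-fold higher in KO (log2 2.77, SE 0.079, adjusted p = 1.53e-07). The 3 *Nlrp9* genes lay between 2.91-fold (*Nlrp9b*) and 4.35-fold (*Nlrp9a*) in WT and between 3.20-fold (*Nlrp9b*) and 3.41-fold (*Nlrp9a*) in KO, with adjusted p of 0.00211 or less. In the *Nlrp4* subfamily *Nlrp4b* was the highest at 2.60-fold in WT (log2 1.38, SE 0.21, adjusted p = 0.00342) and 2.38-fold in KO (log2 1.25, SE 0.14, adjusted p = 0.000177). *Nlrp4a* was 1.52-fold higher in WT polysomes (log2 0.61, SE 0.14, adjusted p = 0.0202) and 1.79-fold in KO (log2 0.84, SE 0.13, adjusted p = 0.00155). *Nlrp4e* was called in KO (log2 0.63, SE 0.13, adjusted p = 0.00701) and not in WT (log2 0.53, SE 0.18, adjusted p = 0.0837). *Nlrp4f* and *Nlrp4c* were called in neither genotype. Their log2 differences were 0.24 (95% interval -0.045 to 0.53) and -0.011 (-0.94 to 0.92) in WT, and 0.13 (-0.057 to 0.32) and -0.17 (-0.81 to 0.47) in KO. The WT call of *Nlrp4a* was lost without any one WT replicate (adjusted p of 0.121, 0.0528 and 0.111 without replicates 1, 2 and 3), and the KO call of *Nlrp4e* without KO replicate 2 (0.0508). Leaving out a replicate here removed both its polysome and its RNP library.

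**Figure D5:**
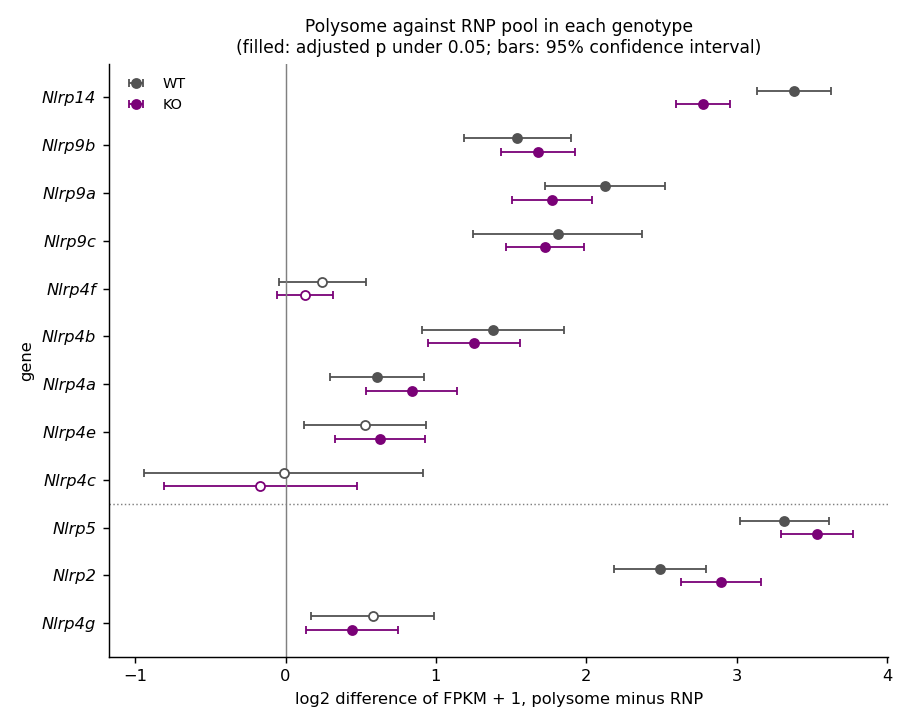
Difference between the polysome and RNP pools on the log2(FPKM + 1) scale in WT and in KO, with 95% confidence intervals from limma; filled points have an adjusted p under 0.05. *Nlrp14* stands at 3.38 in WT and 2.77 in KO, the *Nlrp9* genes between 1.54 and 2.12, and *Nlrp4f* and *Nlrp4c* beside 0.

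Whether the polysome-to-RNP ratio differed between genotypes was tested as an interaction over all 12 libraries. None of the 9 genes was called by limma, and the test called 0.237% of 10949 genes in either direction. At an unadjusted p under 0.05 stood 1 of the 9, beside 1220 of the 10949, so the share of the 9 was not above that of all genes. That gene was *Nlrp14*, whose ratio was lower in KO by a log2 difference of -0.61 (SE 0.13, 95% interval -0.89 to -0.32, unadjusted p = 0.000458, adjusted p = 0.0912). It passed the threshold with libraries rescaled to the same median (-0.65, adjusted p = 0.0478) and with quantile normalization (-1.13, adjusted p = 0.00310). With the polysome and the RNP library of KO replicate 2 both left out, it was -0.62 (adjusted p = 0.306). The rise of *Nlrp14* in KO was thus 2.33-fold in polysomes beside 3.55-fold in RNP. For the other 8 the difference lay between -0.35 (*Nlrp9a*, 95% interval -0.80 to 0.10) and 0.23 (*Nlrp4a*, -0.18 to 0.65), and all 8 intervals included 0. The widest was that of *Nlrp4c*, -1.12 to 0.80.

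Other *Nlrp* genes give the setting. Of 12 listed, 11 were in the table and 3 were expressed enough to be tested. *Nlrp5*, which encodes MATER of the subcortical maternal complex, read 573, 609 and 677 FPKM in WT and 1177, 1361 and 1384 FPKM in KO polysomes. It was higher in KO in both pools (log2 1.08, SE 0.11, adjusted p = 0.00182 in polysomes; log2 0.86, adjusted p = 0.00225 in RNP). *Nlrp2*, a component of the same complex, read 289.9, 336 and 295 FPKM in WT and 351, 355 and 385 FPKM in KO polysomes and was called in neither pool (log2 0.24, adjusted p = 0.212, and -0.16, adjusted p = 0.486). *Nlrp4g* read 202, 245 and 187 FPKM in WT and 192, 238 and 248 FPKM in KO polysomes and was called in neither (log2 0.10, adjusted p = 0.743, and 0.23, adjusted p = 0.347). Between pools, *Nlrp5* and *Nlrp2* were 9.97 and 5.63-fold higher in WT polysomes (adjusted p = 2.66e-06 and 1.50e-05). *Nlrp1b*, *Nlrp1c-ps*, *Nlrp3* and *Nlrp6* were listed at 0 in all 12 libraries, and *Nlrp1a*, *Nlrp5-ps*, *Nlrp10* and *Nlrp12* never exceeded 2.19 FPKM.

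Inflammasome partners were listed at or near 0 beside the abundant *Nlrp* mRNAs, with a single exception. Of 10 listed, 9 were under 1 FPKM in all 12 libraries and 7 were listed at 0 throughout, *Pycard*, which encodes the adaptor ASC, among them. The exception was *Nek7*, a kinase that binds NLRP3, which read 9.33, 16.9 and 11.4 FPKM in WT RNP and 4.96, 3.77 and 2.90 FPKM in KO RNP, where it was lower (log2 -1.46, SE 0.32, adjusted p = 0.0125). In polysomes it read 9.98, 1.41 and 0.119 FPKM in WT and 7.16, 9.13 and 0 FPKM in KO. Its change there was not called (log2 0.49, SE 1.06, adjusted p = 0.810). Of 11 other NLR genes 3 were tested between genotypes, none was called in polysomes, and in RNP *Naip1* was higher (log2 1.51, SE 0.20, adjusted p = 0.00106) and *Nod2* lower (log2 -1.88, SE 0.37, adjusted p = 0.00797). *Nod2* read 7.09, 5.23 and 7.24 FPKM in WT RNP and 0.672, 1.94 and 0.711 FPKM in KO RNP. It passed the filter on low values there only because of its WT values, so its call leans toward lower in KO. The 7 listed genes of the subcortical maternal complex include *Nlrp5* and *Nlrp2* but not *Nlrp4f*. Of these, 4 were higher in KO polysomes and 6 in KO RNP, and none lower. *Padi6*, an egg protein of the cytoplasmic lattices, changed by 0.86 in polysomes (adjusted p = 0.00145) and 0.85 in RNP (0.000386). *Tle6*, a scaffold of the complex, changed by 0.59 (0.0215) and 0.97 (5.77e-05). The complex had a median change of 0.59 in polysomes and 0.85 in RNP. Of the 10 oocyte markers, 3 were higher and 1 lower in KO polysomes, and 6 higher and 1 lower in KO RNP, with medians of 0.50 and 0.51. *Ooep* is in both lists, so they are not separate. Over all genes tested the medians were 0.10 and 0.054, and limma called 5.64% higher in KO polysomes and 10.5% in KO RNP.

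Likeness over the 12 libraries was measured as Pearson's r of log2(FPKM + 1) among 5049 other genes averaging 10 FPKM or more. It is a description, since the libraries fall into 4 groups and r mainly follows the group means. The genes most like the mean of the 9 were *Morf4l2* (0.995), *Tsnax* (0.991), *Speer5-ps1* (0.989), *Pkm* (0.988) and *Tuba1c* (0.987). *Morf4l2* averaged 300 FPKM in WT and 677 FPKM in KO polysomes, and 111 FPKM and 233 FPKM in the RNP groups. The genes most like *Nlrp14* were *Tubb2a* (0.996), *Fbxw24* (0.995) and *Birc5* (0.992), and *Nlrp5* was number 66 with 0.973. Within the 9, *Nlrp14* and *Nlrp9a* were the closest pair (0.994), *Nlrp9* genes and *Nlrp14* had r of 0.942 or more with each other, and *Nlrp4c* had the lowest values, down to -0.068 with *Nlrp4a*.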

How the data were processed

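RNA of the polysome and RNP pools was amplified by Smart-seq2 and sequenced as 150-base read pairs. Per the submitters' processing notes, the authors used mm10, TopHat2 2.0.13 and Cufflinks 2.2.1. They deposited FPKM per gene symbol, with no counts. How Cufflinks divided reads among paralogs, and the annotation release, are not given in the sources used here. Sources differ on the gradient (15 to 50% or 15 to 55% sucrose) and on the library kit. The 54 columns of the authors' own comparisons (fold changes, test statistics and p-values) were not used.

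Libraries were grouped by their labels. Genes that reached 1 FPKM in 3 or more libraries of a comparison were fitted as log2(FPKM + 1) with limma 3.58.1 (R 4.3.3) with an intensity trend, and p-values were adjusted by Benjamini-Hochberg over all genes tested. A two-sided exact permutation test of 3 against 3 libraries cannot go below p = 0.1, so no call rests on it. The script was tested on simulated data. Depth was estimated from the spacing of low FPKM values, with 200 bases taken off each length, so fragment numbers and counting errors are approximate. Sequences and features came from GENCODE M21 and RefSeq. Alternatives were other pseudocounts (0.1 and 5), filters (none, or 5 FPKM), scalings, a replicate block, no intensity trend and leaving out each replicate. In fits that hold both pools, leaving out a replicate removed the polysome and the RNP library of that genotype and number.

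The 9 genes were taken by name, by a rule that uses no measured value, but they and all lists were chosen with earlier results of these data known. Named are the 9 genes, *Lsm14b*, *Nlrp2*, *Nlrp5*, *Nlrp4g*, up to 3 called genes of a list and the genes of highest likeness. *Foxl2*, *Amhr2*, *Cyp19a1*, *Kitl*, *Pecam1*, *Pycard*, *Gm4541*, *Gm18877* and the *Nlrp* genes listed at or near 0 were named after their values were seen. Markers of theca and stroma, of immune cells, and of blood and endothelium summed to at most 3.02, 10.7 and 41.0 FPKM. The last sum was *Pecam1* alone, at 41.0 FPKM in WT RNP replicate 3, and the other 5 blood and endothelial markers were under 1 FPKM in all 12 libraries.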

Additional observations from a re-analysis of the deposited data

How the results depend on the processing

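Over 584 pairs of a gene's change and an alternative, 534 kept direction and side of the threshold, 36 lost a call, 3 gained it and 11 changed sign. Of the 9 genes, the number called in KO polysomes went from 5 to 3 with no filter on low values and to 2 with no intensity trend, and to between 2 and 6 when 1 replicate was left out. The RNP count went from 8 to 6 with no filter (*Nlrp4c* and *Nlrp9c* lost, adjusted p = 0.0692 and 0.0622), to 6 with no trend (*Nlrp4f* and *Nlrp9c*, 0.159 and 0.0802), to 7 with quantile normalization (*Nlrp4f*, 0.0686) and to between 4 and 7 with a replicate left out. The ratio test called 1 gene, *Nlrp14*, with the same-median rescaling and 1 with quantile normalization, and its adjusted p ran from 0.00310 to 0.428 over its alternatives. The counts between pools stayed at 5 or 6 in WT and at 6 or 7 in KO. With a replicate block, 5, 7, 0, 6 and 7 genes were called in the polysome, RNP, ratio, WT and KO comparisons, *Nlrp4c* in RNP being the call lost (adjusted p = 0.0747), and none was called for the ratio with polysome and RNP libraries of a number paired. The numbers do not pair the samples in the labels, same-numbered libraries did not deviate together (12 correlations between -0.021 and 0.026), and of the 3 pairs of WT and KO libraries 1 correlated best with its own number in polysomes and 2 in RNP.

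The sign changed with the same-median rescaling for *Nlrp4c* between WT pools (0.019), and with quantile normalization for *Nlrp4c* between WT pools (0.058) and *Nlrp4f* between KO pools (-0.076). With a replicate left out it changed for values that were not called: *Nlrp4a* in RNP ranged from -0.13 to 0.036, the ratio of *Nlrp4c* from -0.45 to 0.036, of *Nlrp4e* from -0.0096 to 0.20 and of *Nlrp9c* from -0.43 to 0.25, and *Nlrp4c* between pools from -0.15 to 0.13 in WT and from -0.46 to 0.025 in KO. The *Nlrp4* sum with *Nlrp4g* was 1172, 791, 1576 and 1056 FPKM in WT polysome, WT RNP, KO polysome and KO RNP.

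Over all genes, calls in KO polysomes went from 989 to 545 with no filter, 508 with no intensity trend and 383 to 790 with a replicate left out, in RNP from 2057 to between 1255 and 1911, for the ratio from 26 to 11 with the replicate block, 6 with no trend and 0 to 26 with a replicate left out (852 to 882 genes at an unadjusted p under 0.05 where it was 0) and 0 with pairs (1129 genes), in WT between pools from 1406 to 728 with no trend and 587 to 648, and in KO from 2881 to between 1706 and 2087. The causes were not tested. Depth limits *Nlrp4c* most, at an estimated 77 fragments in its lowest library.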
